A study of Mus musculus with 16 samples.

Results

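A constant MyoD region near a gene end was a stretch of the mouse genome that carried a MyoD peak in all 4 MyoD chromatin immunoprecipitation libraries and lay within 1 kb of an annotated end of a protein-coding gene. Peaks of the 4 libraries were merged wherever they touched or overlapped on chromosomes 1 to 19 and X of the mm10 build, which gave 24264 regions. Of these, 9909 held a peak of every library, and 1318 of those 9909 (13.3%) lay within 1 kb of a start or end of a gene in the RefSeq table. The presence of MyoD peaks therefore chose the regions, and MyoD values within them are given as a description without a test. The other 8591 constant regions served for comparison.

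MyoD is a basic helix-loop-helix transcription factor that pairs with E proteins and binds the E-box, a short DNA motif written CANNTG. It drives the commitment of satellite cells (muscle stem cells) to myoblasts and their differentiation into muscle fibres. Acetylation of histone H3 at lysine 27 (H3K27ac) is a mark of active promoters and enhancers.

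The cells were satellite cells from the hindlimb of C57BL/6 mice, kept in culture, and the study compared cells labelled LncMyoD-KD, with knockdown of the long noncoding RNA LncMyoD, with cells labelled control. MyoD and H3K27ac were each profiled in 2 control and 2 LncMyoD-KD libraries, 8 libraries in all, made by tagmenting antibody-bound chromatin. The labels give every sample the same treatment, 48 h of small interfering RNA against LncMyod, and do not state a separate one for the controls. They state no age, sex or pooling of the mice and do not tie replicates to distinct animals or cultures, so p-values measure only the spread between libraries, which may be technical. The matched input libraries were not analysed here, and RNA, including the level of LncMyoD itself, was not measured in these libraries.

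The MyoD libraries held 17818 and 17649 peaks in control cells and 16524 and 13146 in knockdown cells, and the H3K27ac libraries 46259, 53048, 54082 and 39964 in the same order. Knockdown 2 had the fewest peaks with both antibodies. Read depth is unknown, because the peak lists carry no read counts. All 6 satellite cell and myoblast markers (Pax7, Myf5, Myod1, Cdh15, Itga7 and Vcam1) had an H3K27ac peak within 1 kb of an end in every library. Among 41 markers of non-muscle cells, 9 to 15 had such a peak per library and 9 (22%) had it in all 4, against 43.4% of all protein-coding genes. Pecam1, Cdh5, Ptprc, Adgre1, Pdgfra, Sox10 and Alb, which mark endothelial, immune, fibro-adipogenic, glial and liver cells, had none in any library.

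In 393 of the 1318 regions the summit of at least 1 MyoD peak fell inside a RefSeq promoter window, which runs from 250 bases before an annotated transcript start to 50 after it, and in 233 the summits of all 4 libraries did. The following stretches of up to 101 bases around the mean summit are shown for the letters close to the point of highest signal: 5 carry the E-box with the core GC that was common in these windows, and 2 without it are set beside them. All lie upstream of the transcript start that defines the window, which for Rhobtb1 and Zfp869 is a start inside the gene, and are written 5′ to 3′ on the gene's strand, from RefSeq sequence of GRCm38.p6, which has the mm10 coordinates. Capitals mark every match to CANNTG, in which N is any base and which reads the same on both strands.
Rhobtb1, chr10:69208380-69208480, plus strand: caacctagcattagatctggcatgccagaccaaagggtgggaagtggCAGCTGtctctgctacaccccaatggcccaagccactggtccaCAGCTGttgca
Hes6, chr1:91414180-91414280, minus strand: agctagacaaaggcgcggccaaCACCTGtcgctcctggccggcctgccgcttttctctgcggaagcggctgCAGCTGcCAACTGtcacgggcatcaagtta
Tpm2, chr4:43523720-43523804, minus strand: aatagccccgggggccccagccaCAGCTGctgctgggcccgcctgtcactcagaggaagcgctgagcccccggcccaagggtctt
Chrna1, chr2:73580368-73580468, minus strand: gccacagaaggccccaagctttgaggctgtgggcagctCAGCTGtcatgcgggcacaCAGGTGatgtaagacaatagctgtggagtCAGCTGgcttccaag
Chrng, chr1:87205598-87205698, plus strand: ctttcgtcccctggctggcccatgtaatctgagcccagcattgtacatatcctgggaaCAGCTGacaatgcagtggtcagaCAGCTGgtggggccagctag
Myog, chr1:134289852-134289952, plus strand: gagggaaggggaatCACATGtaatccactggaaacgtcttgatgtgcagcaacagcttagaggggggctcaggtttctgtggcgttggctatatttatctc
Zfp869, chr8:69717044-69717144, minus strand: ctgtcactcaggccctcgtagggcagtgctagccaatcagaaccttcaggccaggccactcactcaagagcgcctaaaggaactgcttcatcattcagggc
The first 5 stretches hold 1 or 2 copies of CAGCTG, the stretch at Myog holds CACATG in its place, and the stretch at Zfp869 holds no CANNTG. A match is a description of the letters and not a measured binding site, and a stretch without a match says only that these letters are absent from it.

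The E-box CAGCTG was present in 241 of the 393 promoter windows with a MyoD summit, a share of 61.3% (95% Clopper-Pearson interval 56.3 to 66.2%, which covers counting only). It was present in 15.7% of all 21020 promoter windows of protein-coding genes. Where all 4 summits lay in the window, 159 of 233 windows (68.2%) held it. The intervals and this comparison are descriptive, since MyoD binding itself chose the windows.

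For the other motifs the gap to the background was smaller or lay in the other direction. Any CANNTG was present in 91.3% of the 393 windows and in 69.0% of all windows, and CAGGTG, read on either strand and so including CACCTG, in 33.6% and 19.9%. The palindrome CACGTG was found in 12.7% against 7.91%. CATATG, an E-box with the core TA, was found in 1.02% of the windows with a summit and 3.04% of all windows. The AP-1 motif TGANTCA (5.60% against 7.04%), the TEAD motif GGAATG (15.0% against 13.5%) and the Runx motif TGTGGT (10.7% against 14.7%), each counted on both strands, were about as common as in all windows or less so. CCAAT was present in 39.4% and 38.5%. The GC-rich motif GGGCGG was present in 67.2% against 46.6%, and the median GC content of the windows was 62.7% against 56.7%, so the windows with a summit were richer in G and C than promoters at large.

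The CAGCTG matches clustered at the summit. Their density was 8.62 per kb in the 30 bases before the mean summit, counted along the chromosome and not by gene strand, and 7.02 per kb in the 30 bases after it. It was 0.244 per kb between 150 and 120 bases before the summit and 0.584 per kb over all promoter windows. CAGGTG reached 4.73 per kb in the 30 bases after the summit, against 0.772 per kb over all windows. Among the 159 windows with all 4 summits and a CAGCTG, 137 (86.2%) had it within 50 bases of the mean summit, and the median distance was 23.5 bp. Of the 233 stretches around the mean summit, 143 held a single CANNTG, 56 held 2, 7 held 3, 2 held 4 and 25 held none. CAGCTG was in 135 of them (57.9%), in 13 more than once, and 55 more held CAGGTG without CAGCTG.

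**Figure D1:**
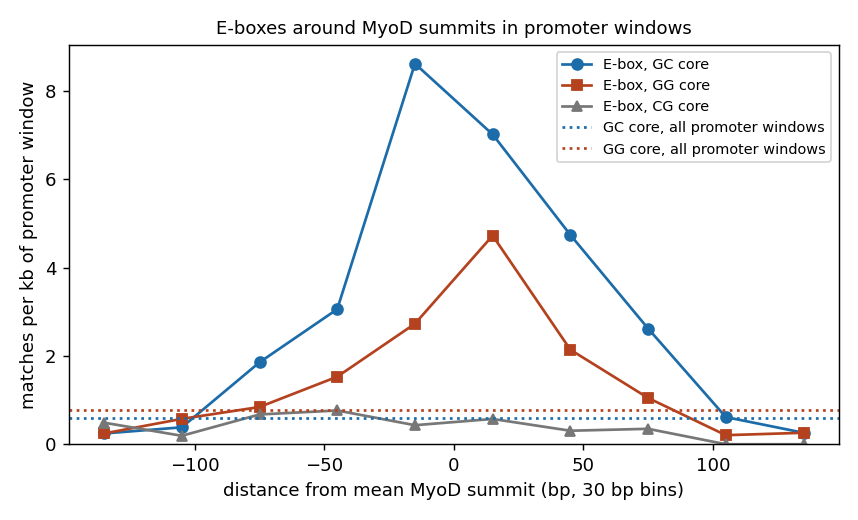
Density of matches to CAGCTG and to the other E-boxes CAGGTG and CACGTG (per kb, vertical axis) by distance in bp from the mean MyoD summit along the chromosome (horizontal axis, 30-base bins) in the 233 promoter windows that hold all 4 summits. The CAGCTG line reaches 8.62 per kb beside the summit and is at 0.244 in the first bin on the left.

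In width and in the spread of their summits the regions were much like the other constant regions. Their median width was 503 bp, against 507 bp for the other constant regions, and 1279 of 1318 (97.0%) held exactly 1 peak per library. The 4 summits of a region spanned a median of 82.5 bp, against 79 bp at the other constant regions. In 297 regions (22.5%) they lay within 50 bp of each other. In 606 regions (46.0%) the annotated gene end itself fell inside the region. The regions lay near 1422 genes, which is 6.57% of the 21631 protein-coding genes. Of these genes, 85 had 2 such regions and none had more.

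Starts outnumbered ends. The direction of transcription was known for 17274 genes, and 777 regions lay only near the 5′ end of such a gene, 226 only near a 3′ end and 76 near both, with 239 left without a known strand. The share near a 5′ end was 79.1% of the 1079 regions with a strand (95% Clopper-Pearson interval 76.5 to 81.4%, which covers counting only). Of the 853 regions near a start, 205 (24.0%) had their mean summit within 100 bp of it and 431 (50.5%) within 250 bp. Upstream summits numbered 366 (42.9%), and the median summit lay 49 bp inside the gene. The 302 regions near a 3′ end showed no such crowding, with 14 mean summits (4.64%) within 100 bp and 46 (15.2%) within 250 bp of the end.

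**Figure D2:**
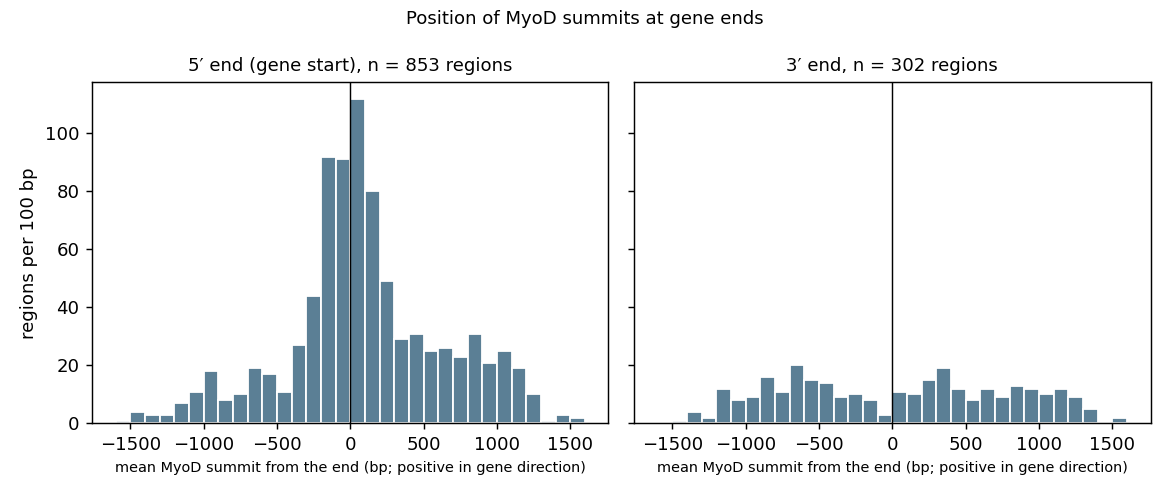
Mean MyoD summit relative to the gene start and to the gene end in bp (horizontal axes) against the number of regions (vertical axes). Of 853 regions near a start, 431 have their summit within 250 bp of it, and of 302 near an end, 46 do.

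Gene ends were shared. There were 183 regions (13.9%) within 1 kb of the ends of 2 or more genes, and 73 (5.54%) lay near starts on both strands. By mean MyoD rank these were led by the region inside Mamstr, a coactivator of MEF2 factors, close to its 5′ end and past the 3′ end of Rasip1, and by the region near Ppp1r14b, an inhibitor of protein phosphatase, and Plcb3. The regions at Xndc1 and Xntrpc, at Camk1g and Lamb3, and at Tas1r1 and Nol9 followed. Which of the genes at such a region MyoD acts on was not tested.

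MyoD fold enrichment at a region was the highest fold that the authors' peak caller gave to a peak of that library there, and it is used here to describe and rank regions within a library. Values are given below in the order control 1, control 2, knockdown 1 and knockdown 2. The median fold of the 1318 regions was 8.59, 8.28, 8.10 and 7.45, against 8.92, 8.61, 8.84 and 7.84 for the other constant regions. The lowest folds were 2.71, 2.88, 2.20 and 3.18 and the highest 36.0, 37.8, 40.5 and 33.7. A fold of at least 10 in all 4 libraries was found at 221 regions (16.8%), against 20.5% of the other constant regions. Ranked from 0 to 100 among all 9909 constant regions within each library, the median percentile was 48.2, 46.7, 43.1 and 46.5, so these regions ranked somewhat below the middle in each library.

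The strongest region had nearly the same height in each library. This region, with the highest mean percentile, lay 688 bp from the 3′ end of A930033H14Rik and over an annotated transcript start inside Rhobtb1, whose outer ends lie beyond 1 kb (chromosome 10, 69207996 to 69209074). Its folds were 35.4, 34.4, 35.4 and 33.7, with percentiles of 99.9, 99.8, 99.8 and 99.9. The groups overlapped there, and H3K27ac folds at the same place were 19.0, 21.0, 19.6 and 17.0.

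The next region, inside Mamstr near its 5′ end (chromosome 7, 45639349 to 45640132), had MyoD folds of 36.0, 31.8, 40.5 and 31.7. Knockdown 1 was the highest and knockdown 2 the lowest, so the groups overlapped. Genes of muscle identity among the 20 strongest regions were Mamstr, Klhl31, a kelch protein of skeletal muscle, Fgfr4, a fibroblast growth factor receptor of myogenic cells, and Hes6, a helix-loop-helix factor that opposes Hes1. Klhl31 had 28.7, 26.8, 28.0 and 31.3, Fgfr4 had 23.8, 25.2, 27.6 and 23.1, and Hes6 had 30.7, 21.5, 28.0 and 22.3. The region at Hes6 lay over the 5′ end, that at Klhl31 522 bp from the 5′ end and that at Fgfr4 72 bp from the 3′ end. The groups overlapped in percentile at all 3 genes.

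Other regions among the 20 strongest lay near Exosc9, a subunit of the RNA exosome, Bloc1s1, a subunit of a complex of lysosome-related organelles, Eif2b2, a subunit of a translation initiation factor, Smug1, a DNA repair glycosylase, and St3gal5, which makes the ganglioside GM3. Exosc9 had folds of 33.4, 33.5, 30.6 and 29.8, with both controls above both knockdown libraries. Bloc1s1 had 35.0, 27.5, 39.8 and 28.2, and Smug1 had 26.2, 29.5, 31.3 and 30.6, with overlap in percentile at both. Poldip3, Rimbp3, Map3k7cl, Trim8, Ppp1r14b, Macrod1 and Sidt1 were also among the 20, with folds between 21.2 and 37.8.

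Duxbl1, Duxbl2 and Duxbl3, double homeobox genes on chromosome 14, each had a region among the 20 strongest. Duxbl1 had folds of 19.0, 27.5, 34.7 and 22.3, Duxbl2 had 27.4, 28.5, 34.4 and 25.4, and Duxbl3 had 21.2, 25.5, 30.3 and 24.4. They are copies of one another, so reads could be split or shared between them and these folds are uncertain. Among the weakest of the 1318 regions were those at Lars2, a mitochondrial leucyl-tRNA synthetase, with 2.71, 3.33, 2.20 and 3.81, and at Chac1, Trrap and Nid2, with folds between 3.62 and 5.63.

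**Figure D3:**
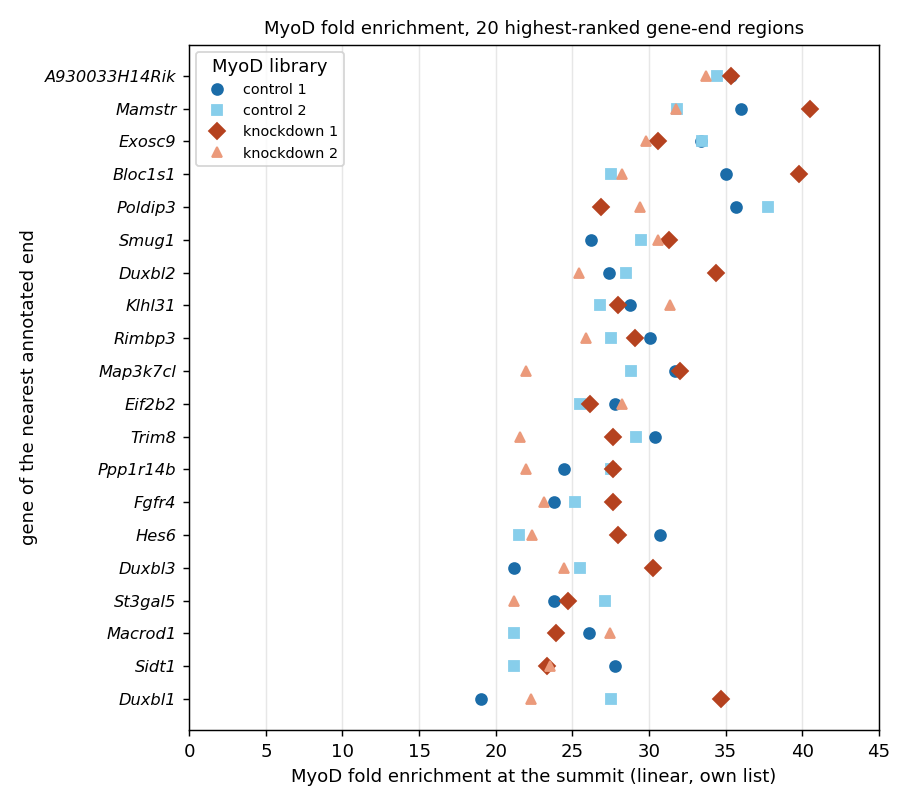
MyoD fold enrichment (horizontal axis) in each of the 4 libraries at the 20 regions with the highest mean percentile, by nearest gene. The points of the control and knockdown libraries lie among each other at most genes, and the region near A930033H14Rik ranges from 33.7 to 35.4.

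Genes of the muscle and comparison lists accounted for a small part of the regions. Of 16 gene lists with 475 genes, 96 genes had a region within 1 kb of an end, at 108 regions. The lists are read against the 6.57% of all protein-coding genes, and nothing particular to a list is claimed from these shares. Highest was the list of neuromuscular junction genes, with 9 of 16 (56.3%), followed by fusion and membrane repair with 9 of 24 (37.5%), Hippo, Runx and limb factors with 9 of 25 (36.0%) and myogenic regulators with 13 of 39 (33.3%). Sarcomere genes had 14 of 51 (27.5%), excitation-contraction coupling 7 of 27 (25.9%), satellite cell genes 7 of 28 (25.0%), the dystrophin complex 4 of 18 (22.2%) and muscle metabolism 4 of 23 (17.4%). Cell cycle genes had 7 of 34 (20.6%), AP-1 and immediate early genes 5 of 26 (19.2%) and matrix and TGF-beta genes 4 of 29 (13.8%). At the low end stood housekeeping genes with 3 of 26 (11.5%), ribosomal protein genes with 2 of 41 (4.88%), chromatin cofactors with 1 of 31 (3.23%), Crebbp, and non-muscle lineage markers with 1 of 42 (2.38%), the smooth muscle actin gene Acta2.

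At the neuromuscular junction, the genes of the acetylcholine receptor subunits Chrna1, Chrnb1, Chrnd and Chrng each had a region at the 5′ end or overlapping an end of unknown direction. Rapsn, which clusters the receptor, had the strongest, with MyoD folds of 19.8, 23.8, 22.3 and 22.3 (chromosome 2, 91035218 to 91035935). Chrna1 had 20.5, 19.5, 24.3 and 17.2 at the summit whose sequence is given above, which holds 2 copies of CAGCTG, and a weaker second region with 6.75, 11.3, 10.7 and 7.84. At Rapsn both knockdown values lay between the controls, and at Chrna1 the stronger region had them on either side of the controls.

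Chrng, the fetal receptor subunit, had 15.9, 7.79, 14.0 and 10.9, a wider spread between the controls than between the group means. Chrnb1 had 15.5, 12.9, 14.0 and 11.0, and Chrnd had 10.9, 8.61, 7.90 and 9.01. Musk, the receptor kinase of the junction, had 9.58, 8.61, 10.3 and 9.40, with both knockdown libraries above both controls in percentile, and a second region with 9.58, 8.98, 9.95 and 8.23 at which the groups overlapped. Erbb3, a neuregulin receptor, and Prkar1a, a regulatory subunit of protein kinase A, ranked lower in both knockdown libraries. Prkar1a had 15.5, 13.9, 12.0 and 11.4, and Erbb3 had 9.91, 9.27, 7.37 and 7.05.

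Among the myogenic regulators the region inside Mamstr was the strongest, followed by Rbm24, an RNA-binding splicing regulator of muscle, with 13.5, 12.3, 15.1 and 9.80. Klhl40, which stabilises thin-filament proteins, had 10.3, 10.2, 10.6 and 18.4, with knockdown 2 far above the other libraries. Myog, the gene of the myogenic factor myogenin, had a region over its start (chromosome 1, 134289425 to 134290141). Its folds were 16.9, 11.6, 5.05 and 11.0, with percentiles of 91.8, 74.8, 7.06 and 78.3. The groups overlapped in percentile at Myog, and the low value was that of knockdown 1 alone.

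Id1, a helix-loop-helix protein that sequesters E proteins, had 2 regions, the stronger with 10.9, 14.9, 8.47 and 11.8. Snai1, a zinc-finger repressor that binds E-boxes, had 10.9, 6.62, 14.7 and 9.01. Mef2c, a MADS-box factor of muscle differentiation, was the only region of this list ranked lower in both knockdown libraries, with 8.26, 7.24, 4.42 and 6.27, and it had no H3K27ac peak. In the other direction, Klhl40 and the region of Klhl41 near its 5′ end ranked higher in both. Myod1 itself had a weak region over an end of the gene, with 5.62, 6.95, 6.53 and 6.27, percentiles between 12.4 and 29.5, and H3K27ac in all 4 libraries.

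Among the satellite cell genes Cdh15, which encodes M-cadherin, had 2 regions near its start. The one inside the gene had 12.2, 15.6, 15.5 and 12.5 and the one over the start 11.6, 11.3, 14.7 and 11.4. The second ranked higher in both knockdown libraries, by percentiles of 86.1 and 80.4 against 73.5 and 73.7. Hes1, a target of Notch signalling, had 12.2, 9.94, 11.8 and 12.5, and the groups overlapped.

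In the sarcomere list Tpm2, which encodes a tropomyosin of the thin filament, led with 22.5, 21.2, 23.2 and 23.9, and both knockdown percentiles (97.5 and 98.8) stood just above both control percentiles (97.5 and 96.7). Smyd1, a muscle methyltransferase that acts on myosin, had 13.9, 17.4, 19.2 and 14.9. Mybpc1, the slow myosin-binding protein, had 16.9, 16.2, 13.3 and 13.7, both knockdown libraries below both controls. Acta1, the skeletal actin gene, had 12.6, 14.2, 8.54 and 16.1, with both knockdown values outside the range of the controls, on opposite sides. Xirp1 had 14.1, 10.9, 15.8 and 13.7 and ranked higher in both knockdown libraries, by percentiles of 88.6 and 89.1 against 84.9 and 70.8. Des, Myh1, Myh3, Ttn, Tnnt1, Tnnt2, Tnnc1, Pdlim3 and Mylk2 were the other genes of this list with a region. Over the whole list, 2 regions ranked lower and 2 ranked higher in both knockdown libraries.

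For fusion and membrane repair, Trim72, which seals membrane wounds, had 16.2, 13.2, 18.4 and 12.5, and Myof, the gene of myoferlin, had 15.9, 12.3, 12.9 and 12.1. The fusogen genes each had a region overlapping an annotated end. Mymx had 16.5, 7.62, 11.8 and 11.9, and the groups overlapped. Mymk had 11.3, 10.9, 6.21 and 8.23, with both knockdown libraries below both controls in fold and in percentile. The difference between the fusogens was not tested.

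In excitation-contraction coupling, Stac3, which serves the voltage sensor of the triad, had 19.8, 14.6, 16.2 and 16.5, and Cacng1, a subunit of the muscle calcium channel, had 13.4, 16.6, 16.8 and 16.5. Ryr1, the calcium release channel, had 16.5, 15.6, 15.1 and 12.9 and ranked lower in both knockdown libraries, by at least 2.73 percentile points. Jsrp1, a protein of the junctional reticulum, had 20.2, 13.6, 14.0 and 12.4. In the dystrophin complex Lama2 had 14.5, 14.9, 18.0 and 11.0 at its start, and Dmd, the dystrophin gene, had 8.92, 10.3, 10.3 and 6.66. Mb, the myoglobin gene, had 12.3, 18.9, 17.3 and 18.8 beside its 3′ end.

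Of the lists that are not muscle structure, the Hippo, Runx and limb factors held Ankrd1, a stress-responsive ankyrin repeat protein, with 16.5, 16.9, 21.0 and 14.9, and the TEAD cofactors Vgll2, Vgll3 and Vgll4. Vgll3 had 17.5, 18.5, 14.0 and 11.2 and ranked lower in both knockdown libraries, while Vgll2 had 11.6, 8.90, 16.2 and 11.0 and ranked higher in both. In the cell cycle list E2f3, an activator of S-phase genes, had 16.2, 14.9, 15.1 and 12.5. Jund led the AP-1 and immediate early genes with 13.9, 12.9, 13.3 and 10.2. Across the 108 regions at listed genes, 12 (11.1%) ranked lower and 17 (15.7%) ranked higher in both knockdown libraries, against 15.9% and 16.4% of all constant regions, and 79 overlapped.

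The comparison of knockdown with control cells was made on percentiles, since the libraries differ in peak number. A region was called lower where both knockdown percentiles lay below both control percentiles, and higher in the reverse case. There were 242 lower regions (18.4%), against 15.9% of all 9909 constant regions, and 188 higher regions (14.3%), against 16.4%. The other 888 regions overlapped. Both shares stood near the background, and with these regions chosen by MyoD peaks no test was made. Folds took only 131 to 217 distinct values per library, so ties and small steps enter the ranks.

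At these regions, the likeness of libraries within a group fell inside the range seen across groups. Over the 1318 regions, Spearman's rho of the fold was 0.72 between the controls and 0.70 between the knockdown libraries, and between 0.69 and 0.75 for the 4 pairs across groups. At the other constant regions the control pair was the closest (0.78) and the knockdown pair the least close (0.71), with 0.74 to 0.77 across groups. These are descriptions across regions that share libraries, with no test. Over the 1318 regions, the median absolute difference in percentile between any pair of libraries was 11.0 to 12.3.

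**Figure D4:**
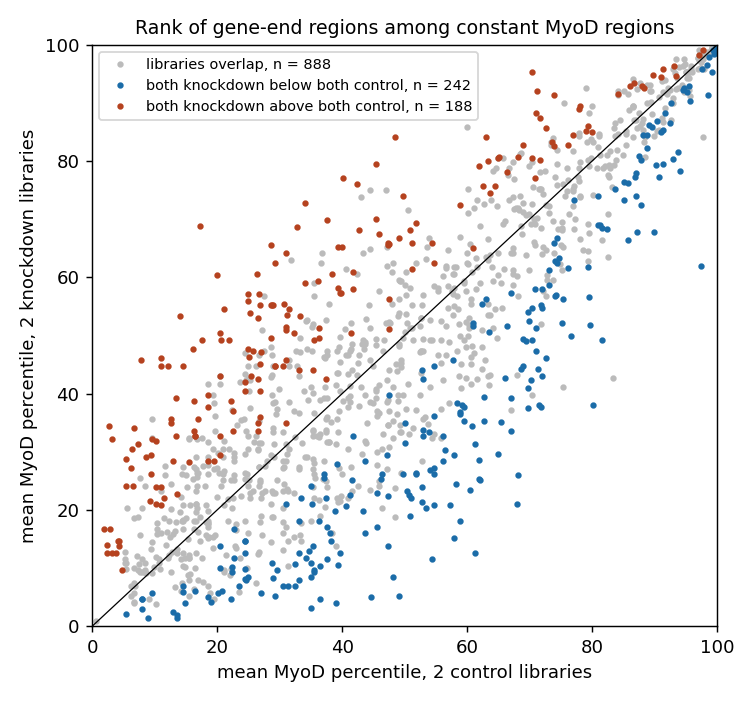
Mean MyoD percentile of the 2 control libraries (horizontal axis) against that of the 2 knockdown libraries (vertical axis) for the 1318 regions, with the 242 lower and 188 higher regions in colour. The lower and higher regions lie on either side of the diagonal along its whole length.

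The largest gap in the lower direction was at Tonsl, a protein of replication fork repair, with folds of 8.92, 10.9, 5.16 and 5.49 and percentiles of 51.7, 70.8, 8.97 and 16.3. Rnf39 had 7.93, 9.27, 4.66 and 4.70. Spc24, a kinetochore subunit, had 8.92, 10.3, 5.89 and 5.61. At each of them both knockdown folds were below both control folds.

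Acad11, an acyl-CoA dehydrogenase, had 8.59, 9.60, 5.89 and 4.70. Ranbp10 had 20.2, 24.9, 10.4 and 8.51, the highest control folds of these regions, and it had no H3K27ac peak in any library. Tonsl, Spc24 and Acad11 had H3K27ac in all 4 libraries, and Rnf39 in knockdown 1 alone.

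In the higher direction Serpinf1, a secreted serpin, stood first with 4.80, 6.95, 10.3 and 10.2, and percentiles of 5.01, 29.5, 64.4 and 73.3. Capn1, the gene of calpain 1, had 8.26, 7.49, 12.5 and 10.6. Klc1, a kinesin light chain, had 7.60, 6.95, 12.5 and 9.40.

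Pycr1, an enzyme of proline synthesis, had 5.65, 4.21, 8.84 and 7.05, and Slc35e2 had 5.95, 5.21, 8.10 and 7.45. All of these 5 regions had H3K27ac in every library. These genes were picked for the size of their gap and their values carry no test.

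H3K27ac did not enter the choice of regions, and a region counted as acetylated in a library if a peak there shared at least 1 base with it. The share of the 1318 regions with H3K27ac was 89.2% in control 1, 89.1% in control 2, 92.1% in knockdown 1 and 82.9% in knockdown 2. The control mean was 89.2% ± 0.107 and the knockdown mean 87.5% ± 6.55 (SD, n = 2 each). The difference of -1.67 percentage points was smaller than the spread of the knockdown libraries, which lay on both sides of the controls (exact permutation test, two-sided, p = 1, the smallest possible being 0.333). Without knockdown 2, the low library and the one with the fewest peaks, the difference was 2.96 points. In bulk chromatin a lower share of cells with a mark and less of the mark per cell cannot be told apart.

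Acetylation was more frequent at these regions than at the other constant regions in each library. The other regions had H3K27ac at 81.6%, 83.4%, 86.1% and 74.0%, so the gene-end regions stood higher by 7.62, 5.70, 5.98 and 8.81 points. The mean excess was 7.03 ± 1.46 points (SD, n = 4 libraries; exact sign-flip permutation test, two-sided, p = 0.125, which is the smallest p that 4 libraries allow). The gap was higher in 4 of 4 libraries and larger than their spread, but this design cannot reach 0.05. The H3K27ac folds at acetylated regions had medians of 11.5, 11.8, 12.6 and 10.3, against 8.55, 10.1, 9.46 and 9.05 at the other regions.

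**Figure D5:**
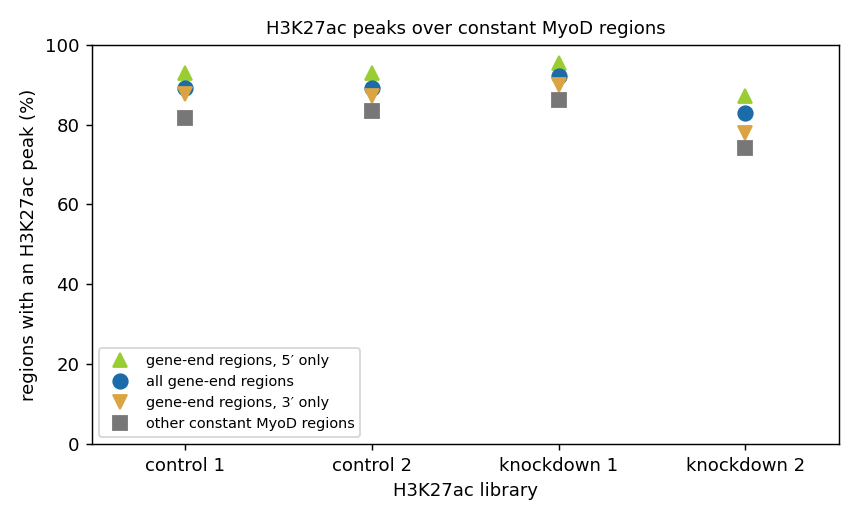
Share of regions with an H3K27ac peak (percent, vertical axis) in each of the 4 libraries for all gene-end regions, those near a 5′ end only, those near a 3′ end only and the other constant regions. The gene-end regions stand above the other constant regions in every library, by 5.70 to 8.81 percentage points, and knockdown 2 is the lowest library of both sets.

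By library count, 1078 regions (81.8%) had H3K27ac in all 4 libraries, against 73.9% of all constant regions, and 95 (7.21%) had it in none, against 11.1%. In between, 77 regions had it in 3 libraries, of which 65 lacked knockdown 2 alone, 45 in 2 and 23 in 1. H3K27ac in both controls only was found at 2 regions (0.152%), against 0.404% of all constant regions, and in both knockdown libraries only at 1 (0.0759%), against 0.222%. Kcnh4, a potassium channel gene, and Hs3st3b1, a heparan sulfate sulfotransferase gene, had H3K27ac in both controls only, with folds of 2.80 to 4.44. Sema3d, a secreted semaphorin gene, had it in both knockdown libraries only, with folds of 3.27 and 4.21. These 3 were named because their counts are this small, and all had low folds.

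Regions near starts were acetylated more often than those near ends. The share with H3K27ac was higher at the 777 regions near a 5′ end only than at the 226 near a 3′ end only by 5.18, 5.62, 5.54 and 9.38 points (mean 6.43 ± 1.98, SD, n = 4; exact sign-flip permutation test, two-sided, p = 0.125, the smallest possible). This comparison was added after the data were seen. Regions within 1 kb of both a 5′ and a 3′ end had H3K27ac least often, with 21 of 76 (27.6%) lacking it in all libraries, against 33 of 777 (4.25%) near a 5′ end only. Several of these 21 regions lay at keratin-associated genes, a family of near-identical copies described below, where reads may be assigned to the wrong copy.

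Acetylation also went with the height of the MyoD peak. In 4 equal parts from the lowest to the highest mean MyoD percentile, 76.1%, 78.4%, 82.7% and 90.0% of the regions had H3K27ac in all 4 libraries. Where both marks were present, Spearman's rho between MyoD fold and H3K27ac fold across regions was 0.18, 0.23, 0.19 and 0.19, a weak relation among regions that share libraries, given without a test. The share of windows with CAGCTG was 65.8% in the stronger part of the 393 windows, split at the median, and 56.9% in the weaker part.

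The regions without H3K27ac in any library were led by Nsg2, a gene of neuronal vesicle traffic, with MyoD folds of 16.2, 19.2, 19.9 and 19.2 near its start (chromosome 11, 31999997 to 32000759). Its groups overlapped, and its MyoD percentile was at least 90.5 in every library. Gm19402 had 14.9, 15.1, 18.9 and 14.9, Rundc3a had 10.1, 13.9, 18.4 and 13.7, and Gm45337 had 12.6, 11.6, 15.8 and 11.4. At these 3 genes both knockdown percentiles lay above both control percentiles. The region at Gm19402 (chromosome 10, from 77690148) was on the same chromosome as that at the keratin-associated gene Krtap10-10 (from 77835962), but separate from it. The region at Gm45337 (chromosome 7, from 142143571) was likewise on the same chromosome as that at Krtap5-1 (from 142296203), and separate from it. Ranbp10, described above, was the fifth.

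Keratin-associated protein genes, which form hair and skin structures, were among the regions without H3K27ac and are named after their values were seen. There were 9 regions near such genes, of 56 in the gene table, where 6.57% of all protein-coding genes had a region. Of the 9, 8 had no H3K27ac in any library, against 7.21% of the 1318 regions and 11.1% of all constant regions. Krtap16-1 was the exception, with H3K27ac in all 4 libraries and MyoD folds of 25.4, 23.5, 19.5 and 21.6. Krtap5-4 had 8.21, 18.2, 14.1 and 11.0 without H3K27ac. These genes form clusters of near-identical copies, so reads could be assigned to the wrong copy and their folds are uncertain.

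The distance of 1 kb falls inside a continuous range. Just inside it lay regions at Rcor3 (991 bp; MyoD folds 5.29, 7.95, 8.47 and 5.49), Sstr4 (993 bp; 10.6, 12.9, 9.95 and 9.40) and Stat5a (998 bp; 6.28, 8.28, 7.37 and 6.27). Just outside lay constant regions at Baalc (1006 bp; 12.6, 11.3, 12.4 and 15.7), Dok7 (1010 bp; 20.8, 18.2, 16.4 and 16.9) and Trerf1 (1013 bp; 5.95, 4.64, 4.47 and 4.53). Dok7, an activator of Musk, thus kept a weaker region inside the limit, with 8.59, 5.63, 7.37 and 5.88, while its stronger region was left out. By number of libraries, 10.8% of regions with a MyoD peak in 1 library, 13.7% of those in 2 and 14.3% of those in 3 lay within 1 kb of an end, beside the 13.3% of those in 4.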

How the data were processed

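Peak lists of 4 MyoD and 4 H3K27ac libraries were used as the authors deposited them in narrowPeak form, 1 list per library. Tools listed in the submitters' processing notes, without settings, are MACS2 2.1.1, Bowtie2 2.3.2, bedtools 2.26.0, SAMtools 1.3 and Picard 2.9.2, with mm10 as the build. Each deposited list gives a score, a fold enrichment, and the −log10 p and −log10 q value of every peak, with the summit as an offset. Read counts were not used here, so depth is unknown.

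Regions were merged and compared with Python 3.11.15, pandas 2.3.3, numpy 2.4.6 and scipy 1.17.1. Gene ends came from RefSeq coordinates, and strands and sequences from the RefSeq promoter table, both of GRCm38.p6. Fold enrichment served to describe regions and to rank them within a library. Folds of different libraries were set side by side as a description only, and lower and higher regions were called on percentiles. Shares of regions were compared over libraries with exact permutation tests. The merging, ranking and motif search were tested on simulated data. Replicates carry the same numbers in both groups, and the fit with the number as a block was tried as an alternative.

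The regions, gene lists and tests were chosen with earlier results of these data known. Genes named were the 20 regions of highest and the 5 of lowest mean percentile, up to 6 genes a list, the 5 strongest regions without H3K27ac, the 5 with the widest gap between groups in each direction, the 5 strongest at shared ends and those next to 1 kb; 1 of the 5 lowest is not reported here. Further genes were named after their values were seen: other members of the lists, the regions acetylated in 1 group only, and the keratin-associated and Duxbl genes.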

Additional observations from a re-analysis of the deposited data

How the results depend on the processing

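The knockdown minus control difference in H3K27ac share had 2 libraries per group and kept its sign under every alternative but 1. Leaving out 1 H3K27ac library at a time gave -6.30 to 2.96 points, and the value without knockdown replicate 2 was 2.96 (exact permutation p = 0.333, the smallest possible). With the replicate number as a block it was -1.67. The excess of gene-end over other constant regions ranged from 5.20 to 9.01 points. The share near a 5′ end was 82.5% at a distance of 500 bp and 74.8% at 2 kb. The counts of lower and higher regions depended on how many libraries had to be separated. Pairing equal replicate numbers as a block gave 373 lower and 308 higher regions, against 25.7% and 25.8% of all constant regions. Leaving out 1 MyoD library at a time gave 471 to 586 lower and 404 to 483 higher. In these runs 31.1 to 34.5% and 31.6 to 34.4% of all constant regions were called. The set of gene-end regions also grew there, to between 1348 and 1591, so these counts are not of the same 1318 regions. With only 2 pairs, same-numbered MyoD libraries deviated together with a correlation of 0.11 over all constant regions, and the numbers may mark nothing shared. The share of promoter windows with an E-box was 68.2% for CAGCTG where all 4 summits lay in the window, 91.3% for any CANNTG and 33.6% for CAGGTG. The number of regions was 999 at 500 bp, 1722 at 2 kb and 1051 at a −log10 q of at least 5. Without read counts, a missing peak cannot be told from a shallow library.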

Other observations

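Some gene-end regions also lay within 1 kb of a microRNA hairpin in the RefSeq table. The strongest was near Dalrd3, 810 bp from Mir191, with MyoD folds of 11.9, 10.9, 14.7 and 8.23 in control 1, control 2, knockdown 1 and knockdown 2. The region at Cdk9, a kinase of transcription elongation, lay 139 bp from Mir3960 and 223 bp from Mir2861 and had folds of 9.91, 9.94, 10.7 and 6.27. The region at Vwa5b2 lay 175 bp from Mir1224, with folds of 5.77, 11.6, 11.1 and 11.4, of which control 1 was the low one. Regions at Ddhd1, Gspt1 and Pip4k2b overlapped the hairpins Mir5131, Mir1945 and Mir8102. The groups overlapped at Dalrd3 and Cdk9, and no hairpin's transcript was measured.

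Olfactory receptor genes, a large family expressed in the nose, were near 5 of the regions out of 1110 genes in the table. This is fewer than the 6.57% of all protein-coding genes that had a region. No H3K27ac in any library was found at 2 of these 5, against 7.21% of all gene-end regions, a count too small to read. Their MyoD folds lay between 5.14 and 12.9.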
